A study of Mus musculus with 3 samples.

Results

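Draining lymph node cells that carried Izumo1r, Ikzf2, Ctla4 and Myb were a small set of activated CD8 T cells from melanoma-bearing mice. A cell was taken when at least 2 of these 4 genes had 1 or more unique molecular identifiers (UMIs, the count of captured mRNA molecules), fewer than 3 of 6 division genes (Mki67, Top2a, Birc5, Ube2c, Pclaf, Rrm2) and fewer than 3 of 6 interferon-response genes (Ifit1, Ifit3, Ifit3b, Rsad2, Usp18, Mx1) were detected. The rule was met by 511 of 6265 filtered cells of the tumour-draining lymph node (TdLN) library, and these are called rule cells here. They were set against the other 5754 filtered cells of that library.

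The study profiled mouse P14 cells, whose transgenic T cell receptor recognises GP33-41, a peptide of lymphocytic choriomeningitis virus (LCMV) shown on H-2Db. All mice were labelled C57BL/6 and wild type. Naive P14 cells from donors with a TCF-1-GFP reporter had been given to recipients 8 days after subcutaneous B16.Gp, a B16.F10 melanoma line that expresses the LCMV glycoprotein. The TdLN and blood (PBMC) libraries were taken on day 16 after transfer, and both were sorted for CD8 T cells positive for CD45.1 and CD44. The memory library came from P14 cells on day 200 of an acute LCMV infection, sorted in addition as KLRG1- and CD127+ with a further marker, and its tissue is not stated. CD45.1 marks the transferred donor cells in such designs, and the viral glycoprotein is a stand-in for a tumour antigen, which limits the model. There was 1 library per group, and the number of mice in each is not stated.

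Izumo1r encodes folate receptor 4, a surface protein best known on regulatory and anergic CD4 T cells. Ikzf2 encodes Helios, an IKAROS-family zinc finger factor, Ctla4 encodes an inhibitory receptor that competes with CD28 for its ligands, and Myb encodes a transcription factor linked to self-renewal of stem-like T cells. In chronic infection and tumours, CD8 T cells that keep TCF-1 (gene Tcf7) and Slamf6 while expressing TOX are described as precursors of exhausted cells, and lymph nodes are one place where such cells are found.

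In the GRCm38 assembly (GENCODE M21) Izumo1r lies on the minus strand at chr9:14885814-14903949, Ikzf2 on the minus strand at chr1:69531214-69687245, Ctla4 on the plus strand at chr1:60887000-60915832 and Myb on the minus strand at chr10:21124935-21160984. The promoters of the Izumo1r and Ctla4 genes, 250 bases before to 50 bases after the RefSeq start on GRCm38.p6, are shown because, of the rule genes in the RefSeq table, these are the ones whose window held a searched motif. Izumo1r is at chr9:14903718-14904017 (minus strand) and Ctla4 at chr1:60908775-60909074 (plus strand), each printed 5′ to 3′ on the strand of the gene. Capitals mark CAGGTG (an E-box) or CTTTGA (a TCF/LEF core), searched on either strand, so that each also appears as its reverse complement. The 2 motifs do not overlap in these windows.
Izumo1r: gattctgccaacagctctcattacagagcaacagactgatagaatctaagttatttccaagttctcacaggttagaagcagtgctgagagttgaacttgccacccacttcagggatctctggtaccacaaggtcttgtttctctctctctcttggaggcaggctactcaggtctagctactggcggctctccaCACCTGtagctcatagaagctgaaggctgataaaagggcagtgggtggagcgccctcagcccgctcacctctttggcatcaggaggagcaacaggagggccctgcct
Ctla4: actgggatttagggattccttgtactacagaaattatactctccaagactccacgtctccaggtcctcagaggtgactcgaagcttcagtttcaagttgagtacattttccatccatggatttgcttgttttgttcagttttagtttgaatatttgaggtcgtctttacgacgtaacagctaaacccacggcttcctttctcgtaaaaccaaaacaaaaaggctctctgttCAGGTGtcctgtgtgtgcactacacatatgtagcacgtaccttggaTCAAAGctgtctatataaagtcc
Among the 4 rule genes and the 16 leading genes described below, 16 of 20 had a promoter in the table. The E-box letters were found in 5 of these 16 genes and the TCF/LEF letters in 3, with a gene of several starts counted once. Of all 32851 promoters of that length, 20.2% held the E-box letters and 16.0% the TCF/LEF letters. The Myb window held neither. A match is a description of the sequence and not a binding site.

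The deposited values were whole UMI counts per gene and barcode. Counts were summed over the cells of a group and scaled to a group total of 1000000 counts (CPM). Intervals are 95% and exact, Poisson for a CPM, conditional binomial for a ratio and Clopper-Pearson for a share. They cover counting error only and not variation between mice, and with 1 library no test across animals was possible. The 3 libraries held 6165 to 8321 barcodes and 49592338 to 72283532 counts, and 11 to 17 barcodes were shared by any pair of libraries. The rule cells held 6088779 counts and the other TdLN cells 63449057. Median depth was 10479 UMIs and 2498 genes in rule cells, against 9632 UMIs and 2258 genes in the other cells, and the median mitochondrial share was 5.82% against 5.28%.

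The rule cells made up 8.16% of the TdLN cells (7.49 to 8.86). Because detection rises with depth, every cell was also thinned to 4000 UMIs, which left out 187 shallower TdLN cells. The rule then took 230 of 6078 TdLN cells, 3.78% (3.32 to 4.29). In PBMC it took 118 of 5652 cells, 2.09% (1.73 to 2.50), and 49 of 5273 thinned cells, 0.929%. In the memory library it took 1 of 7003 cells, 0.0143%, and 0 of 6763 thinned cells, with an interval that reached 0.0545%. The order TdLN, PBMC, memory held at both depths, with intervals that did not overlap. The 1 memory cell carried Izumo1r and Ikzf2 at 1 UMI each, 16 UMIs of Cd8b1, 0 of Cd8a, 2 of Cd4 and 1 of Foxp3.

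Over whole libraries each rule gene was highest in TdLN, then PBMC, then memory. Izumo1r was at 17.6 CPM in TdLN and 3.47 CPM in PBMC, against 0.185 CPM in memory cells. Ikzf2 was at 19.9 CPM in TdLN and 6.1 CPM in PBMC, against 0.342 CPM in memory cells. Ctla4 was at 24.7 CPM in TdLN and 5.02 CPM in PBMC, against 0.813 CPM in memory cells. Myb was at 24.2 CPM in TdLN and 10.5 CPM in PBMC, against 0.285 CPM in memory cells. The memory sort required CD127 and a further marker, which set in part the cells that library holds.

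The 4 genes were found together mostly in pairs. Exactly 2 of them were detected in 360 rule cells (70.5%), 3 in 119 (23.3%) and all 4 in 32 (6.26%). The most frequent pair was Ctla4 with Myb in 89 cells, followed by Izumo1r with Myb in 68 and Izumo1r with Ctla4 in 66. Izumo1r with Ikzf2 was the least frequent, in 28 cells. Each detected rule gene had just 1 UMI in 149 cells (29.2%), so a good part of the set rests on single molecules.

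The levels of the rule genes describe how the cells were chosen and are not a finding. Izumo1r was at 94.1 CPM in rule cells, against 10.3 CPM in the other cells, with a UMI in 55.0% against 6.69% of cells. Ikzf2 was at 95.1 CPM in rule cells, against 12.7 CPM in the others (48.5% against 8.46% of cells). Ctla4 was at 99.9 CPM in rule cells, against 17.5 CPM in the others (65.8% against 11.2% of cells). Myb was at 95.1 CPM in rule cells, against 17.4 CPM in the others (66.5% against 11.2% of cells). The rule genes were also read in cells with markers of other types. In cells with B-cell markers (58 cells, median 4453 UMIs) Izumo1r and Ctla4 were detected in 0 cells and Ikzf2 and Myb in 1 each, and in myeloid-marker cells (89 cells, median 2221 UMIs) the counts were 0 for Izumo1r, Ctla4 and Myb and 3 for Ikzf2. None of these cells met the rule, although rule cells could carry such markers too: at least 2 of 8 myeloid markers were detected in 12 of them. The B-marker and myeloid-marker cells were shallower than the rule cells, and how far free RNA added to the rule genes was not tested.

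Each rule gene was also read in cells chosen by the other 3. Cells chosen without Izumo1r (349 cells) had 59.5 CPM of Izumo1r, against 14.9 CPM in the rest, 4.0-fold (3.47 to 4.60). Cells chosen without Ikzf2 (374 cells) had 70.3 CPM of Ikzf2, against 16.3 CPM in the rest, 4.31-fold (3.79 to 4.89). Cells chosen without Ctla4 (307 cells) had 63.5 CPM of Ctla4, against 22.5 CPM in the rest, 2.82-fold (2.45 to 3.24). Cells chosen without Myb (294 cells) had 61.1 CPM of Myb, against 22.1 CPM in the rest, 2.77-fold (2.39 to 3.19). All 4 genes were thus higher in cells picked without them. The 4 genes were put together with earlier results of these data known, so these ratios are descriptions and not support. Against a rest held to the same division and interferon limits the 4 ratios were 5.18, 5.33, 3.92 and 3.33, in that order of genes.

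The division limit removed many cells that carried the genes. Of 822 cells with at least 2 of the 4 genes, 199 were left out by the division limit, 143 by the interferon limit and 31 of these by both. At least 2 of the genes were detected in 199 of 330 cells past the division limit (60.3%, median 26563.5 UMIs). The share was 143 of 668 cells past the interferon limit (21.4%, median 10492.5 UMIs) and 511 of 5316 cells within both (9.61%, median 9461.5 UMIs). At 4000 UMIs the shares were 9.69%, 6.63% and 3.87%, so the cells past either limit still had the higher shares.

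The rule cells were CD8 T cells by their markers. Cd8a or Cd8b1 was detected in 505 of 511 rule cells (98.8%), against 97.2% of the other cells, and Cd3e and Cd3d in 510 rule cells each. Foxp3, the defining factor of regulatory CD4 T cells, was found in 1 rule cell (4 UMIs), against 1 UMI among the others. Lrrc32, another gene of activated regulatory T cells, was at 0 in both groups. Other markers of the same list were higher in rule cells, Tnfrsf18 at 60.9 CPM against 48.3 CPM and Tnfrsf4 at 5.09 CPM against 2.22 CPM. Il2ra was at 0.493 CPM against 1.04 CPM and Gpr83 at 0.328 CPM against 0.126 CPM, on 3 and 2 UMIs in rule cells. At least 2 of the 6 regulatory markers were detected in 2.94% of rule cells, against 1.72% of the others. Cd4 or Foxp3 was detected in 6 rule cells (1.17%), against 71 other cells (1.23%), and 3 of those 6 also had Cd8a or Cd8b1. Of the 6 genes for Ly49 receptors that mark a CD8 regulatory subset, 1 had counts in rule cells (4 UMIs), against 5 in the others. At least 1 of these genes was detected in 0.783% of rule cells and 0.904% of the others, a larger group.

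Markers of other cell types were present in both groups. At least 2 of 8 myeloid markers were detected in 2.35% of rule cells, against 4.95% of the others. At least 2 of 7 B-cell markers were detected in 29.2% of rule cells, against 19.6% of the others. Ighm, Cd79b and Cd22 were the most often detected of these: Ighm was detected in 84.3% of rule cells and 79.6% of the others, while Cd79a, part of the B-cell receptor, was in 0.587% of rule cells and 1.91% of the others. Summed over the whole lists, the B-cell markers were at 284 CPM in rule cells and 290 CPM in the others, and the myeloid markers at 156 CPM in rule cells and 306 CPM in the others. All 7 B-cell and all 8 myeloid markers had counts in both groups.

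Receptor segments were compared in both compartments. Among UMIs that reach a beta V segment, 12.3% of 227 in rule cells (8.36 to 17.3) were from a segment other than Trbv13-3, the P14 beta segment, against 10.7% of 1861 in the other cells (9.33 to 12.2). Trav14 took 74.7% of the alpha V UMIs in rule cells and 73.2% in the others, again with overlapping intervals. A Trbv13-3 UMI was found in 29.9% of TdLN rule cells, against 22.7% of the other cells, and these intervals did not overlap. In PBMC the other-segment share was 20.2% of 104 UMIs in rule cells, against 31.8% of 2010 in the other cells. Trav14 took 76.6% of the alpha V UMIs in PBMC rule cells (67.5 to 84.3), against 53.9% in the other PBMC cells (52.1 to 55.7). For neither of these PBMC shares did the intervals overlap.

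Across the transcriptome, 4669 genes reached 20 CPM in at least one of the groups, not counting the 16 rule genes. At a ratio of 1.5 or more, 85 genes (1.82%) were higher in rule cells and 97 (2.08%) lower, 3.90% in all. The median log2 ratio of all measured genes was 0.06. With edgeR's TMM scaling the split was 54 higher and 122 lower, and the all-gene median moved to 0.00. The other cells included dividing, interferon-responding, B and myeloid cells. Against the other cells that were within both limits, 155 of 4626 genes (3.35%) were higher and 50 (1.08%) lower, 4.43% in all, with an all-gene median of 0.11.

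The 16 genes with the highest ratios were led by Ptms, Mxd4, Tspan32, Icos and Slamf6, followed by H2-Oa, Capg, Ctla2a, Cd160, Asap1, Tox, Eva1b, Gstp3, Bcl2a1b, Itgb1 and Rgcc. Their ratios ran from 1.69 to 2.48, with a median of 2.0, and against the other cells within both limits from 1.79 to 4.39, with a median of 2.46. The list chose its own members by these ratios, so no count over it is support. Genes under 50 CPM could have higher ratios, such as Lag3 and Cd200, given below.

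Slamf6, a homophilic receptor of the SLAM family that marks stem-like T cells, was at 225 CPM in rule cells, against 101.5 CPM in the others, 2.22-fold (2.09 to 2.35). It was detected in 75.3% of rule cells and 48.7% of the others, and at 4000 UMIs in 49.1% and 27.6%. A Slamf6 UMI was also found in 25.9% of the 58 B-marker cells (15.3 to 39.0), and whether these were free RNA was not tested. Tox, the high-mobility-group factor needed for exhausted CD8 T cells to persist, was at 63.7 CPM in rule cells, against 33.5 CPM in the others, 1.90-fold (1.70 to 2.12). It was detected in 49.1% of rule cells and 27.6% of the others. Slamf6 and Tox were not part of the rule. Both were detected in 199 rule cells (38.9%) and neither in 74 (14.5%), so the 6 named markers were shared unevenly within the set.

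Icos, a costimulatory receptor of the CD28 family, was at 91.5 CPM in rule cells, against 40.9 CPM in the others, 2.24-fold (2.04 to 2.45). Cd160, an inhibitory receptor that binds HVEM, was at 103 CPM in rule cells, against 52.1 CPM in the others, 1.97-fold (1.81 to 2.15). Mxd4, a MAX-binding repressor that opposes MYC, was at 119 CPM in rule cells, against 48.7 CPM in the others, 2.45-fold (2.26 to 2.66). These 3 genes were picked by their ratios in these same counts, so their non-overlapping counting intervals are a description and not support. Ptms, which encodes the small nuclear protein parathymosin, was at 78.2 CPM in rule cells, against 31.5 CPM in the others, 2.48-fold (2.24 to 2.74). Capg, an actin-capping protein, was at 72.1 CPM in rule cells, against 34.9 CPM in the others, 2.07-fold (1.86 to 2.29). Against cells within both limits these last 2 ratios were 4.39 and 3.76.

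Among the rest, Tspan32 (a tetraspanin of blood cells) was at 86.2 CPM in rule cells, against 35.5 CPM in the others. H2-Oa, a chain of the peptide-loading modulator H2-O, was at 63.2 CPM in rule cells, against 29.9 CPM in the others. Ctla2a, which encodes an inhibitor of cathepsin-type proteases, was at 691 CPM in rule cells, against 340 CPM in the others. Itgb1, the beta 1 integrin chain, was at 199.9 CPM in rule cells, against 115 CPM in the others. Ctla2a, Gstp3 and Bcl2a1b have close paralogs, and how the authors' counting divided reads between such copies was not examined, so their values are uncertain.

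**Figure D1:**
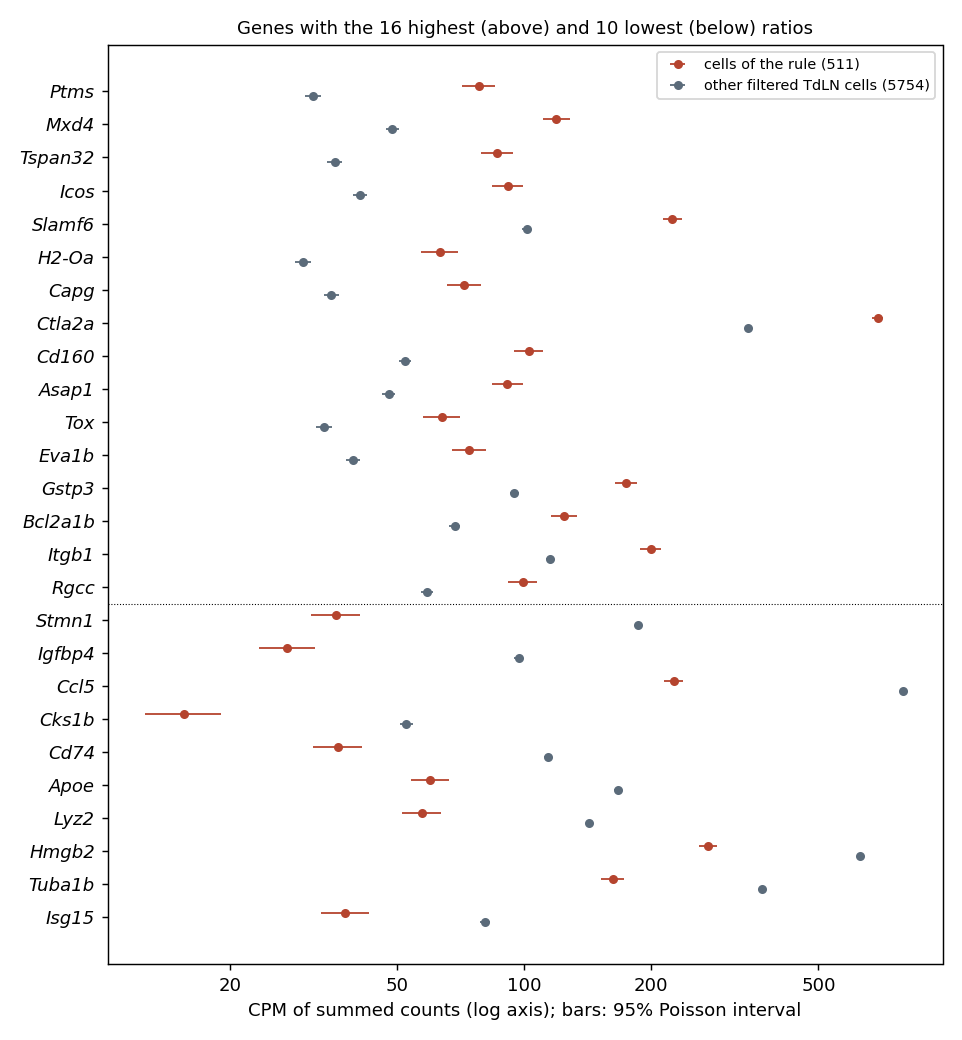
CPM of summed counts (log axis) in the 511 rule cells (red) and the 5754 other TdLN cells (grey). The genes are those with the 16 highest and 10 lowest ratios at 50 CPM or more in the higher group. Bars are 95% Poisson intervals. Slamf6 is at 225 CPM in rule cells and 101.5 CPM in the others, and Ccl5 at 227 CPM and 794 CPM.

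At the same 50 CPM minimum, the 10 lowest ratios were those of Stmn1, Igfbp4, Ccl5, Cks1b, Cd74, Apoe, Lyz2, Hmgb2, Tuba1b and Isg15. Several are genes of dividing cells, which the rule keeps out, or of myeloid and B cells. Ccl5, a chemokine of effector and memory CD8 T cells, was at 227 CPM in rule cells, against 794 CPM in the others, 3.50-fold lower (3.32 to 3.70). It was detected in 36.0% of rule cells and 43.3% of the others, and in thinned cells in 23.1% and 31.3%. The shares of cells with Ccl5 thus differed less than the CPM values. Igfbp4, an insulin-like growth factor binding protein found in naive and early memory T cells, was at 27.4 CPM in rule cells, against 97.3 CPM in the others, 3.55-fold lower (3.04 to 4.16). These differences were as large against the other cells within both limits, 3.99-fold for Ccl5 and 4.25-fold for Igfbp4. Stmn1, a microtubule regulator of dividing cells, was at 35.8 CPM in rule cells, against 187 CPM in the others. Against cells within both limits it was 2.12-fold higher in rule cells, and Hmgb2 and Cks1b were also higher, 1.5-fold and 1.30-fold. Of the Lyz2 UMIs in rule cells, 340 of 349 lay in 3 cells, and of the Apoe UMIs 339 of 364.

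The gene lists are described by the genes that reached 20 CPM in at least one group. A gene that reached it in the higher group alone could be counted in that direction only, so the counts and medians of the lists are descriptions and support nothing. Of 17 genes listed as inhibitory receptors, Cd200 among them although it encodes a ligand, 6 reached 20 CPM. Of these, 3 were at least 1.5-fold higher, Cd200 included, and none lower. The list median was 0.74 (log2), beside 0.06 for all genes. Lag3, Cd200 and Btla reached 20 CPM in rule cells alone. Lag3, a receptor for MHC class II, was at 43.2 CPM in rule cells, against 9.93 CPM in the others, 4.35-fold (3.75 to 5.03). Cd200, a ligand that restrains myeloid cells, was at 28.4 CPM in rule cells, against 6.30 CPM in the others, 4.51-fold (3.75 to 5.40). Against cells within both limits the ratios were 8.45 and 8.10. Lag3 or Cd200 was detected in 176 rule cells (34.4%), against 544 of the others (9.45%). Pdcd1, which encodes PD-1, was at 5.09 CPM in rule cells and 3.01 CPM in the others, under the 20 CPM minimum. Havcr2 (TIM-3) was at 0.328 CPM in rule cells and 0.504 CPM in the others, and Tigit was at 0 UMIs in rule cells, with 0.236 CPM in the others. Both were under the floor of 3 counts in rule cells (0.493 CPM), so no fold is given.

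The precursor-exhausted list, which shares Cd200 with the previous list, had 9 of 15 genes measured, 4 at least 1.5-fold higher, none lower, and a median of 0.57. Of these, Cd200 reached the minimum in rule cells alone. Beyond Slamf6, Tox, Icos and Cd200, Cd28 was at 223 CPM in rule cells, against 150 CPM in the others, 1.48-fold (1.40 to 1.57). Xcl1, a chemokine that attracts cross-presenting dendritic cells, was at 42.5 CPM in rule cells and 48.3 CPM in the others. The follicular helper-like list, of which 4 of 12 genes were measured, had 3 higher (Cd200, Icos and Sh2d1a) and a median of 0.89. Its defining factor Bcl6 was at 4.27 CPM in rule cells and 2.57 CPM in the others, and the chemokine receptor Cxcr5 at 11.3 CPM and 8.94 CPM, all under the minimum.

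Among stem and memory transcription factors, 11 of 12 were measured, 1 was at least 1.5-fold higher and none lower, with a median of 0.22. The one was Id3, an inhibitor of E proteins, at 263 CPM in rule cells, against 162 CPM in the others, 1.62-fold (1.54 to 1.71). Tcf7 was at 359 CPM in rule cells, against 266 CPM in the others, 1.35-fold (1.29 to 1.41), and was detected in 93.5% of rule cells and 85.7% of the others. Klf2, which drives egress and quiescence genes, went the other way, at 391 CPM in rule cells and 554 CPM in the others, 1.42-fold lower (1.36 to 1.48). Against cells within both limits it was 1.58-fold lower. The other IKAROS-family and MYB-linked factors were close to the background, with 7 of 10 measured, none past 1.5-fold and a median of 0.22. Ikzf1, which encodes IKAROS, had a ratio of 1.17.

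No measured cytotoxic or naive gene was at least 1.5-fold higher in rule cells, and several were lower. Of 15 cytotoxic genes 9 were measured, none was at least 1.5-fold higher and 4 were lower (Gzma, Gzmm, Ccl5 and Ccl4), with a median of -0.24 and a mean of -0.98. Gzma and Gzmm reached 20 CPM in the other cells alone, and so could be counted as lower only. Gzma, which encodes granzyme A, was at 0.985 CPM in rule cells, against 25.5 CPM in the others, 25.9-fold lower (11.9 to 70.6). Gzmm was at 7.06 CPM in rule cells, against 24.9 CPM in the others. Nkg7, a protein of cytotoxic granules, was at 1049 CPM in rule cells and 967 CPM in the others. Of 13 naive T cell genes 12 were measured and 2 were lower, Igfbp4 and Treml2, with a median of -0.19, and Treml2 reached 20 CPM in the other cells alone. Ccr7, the lymph node homing receptor, was at 205 CPM in rule cells and 181 CPM in the others. Dapl1, of the same list, was at 867 CPM in rule cells, against 641 CPM in the others, 1.35-fold (1.31 to 1.39). Against the other cells within both limits, 1 naive gene was at least 1.5-fold higher and 4 were lower.

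Survival and cytokine receptor genes differed in both directions. Of 13 survival genes 11 were measured, 2 were at least 1.5-fold higher and 1 lower, with a median of 0.27. Of 17 cytokine receptors 12 were measured and 1 was lower, with a median of 0.02. Il7r, the interleukin 7 receptor, was at 187 CPM in rule cells, against 276 CPM in the others, 1.48-fold lower (1.39 to 1.57). Bcl2, an anti-apoptotic factor that interleukin 7 maintains, was at 149.8 CPM in rule cells, against 241 CPM in the others, 1.61-fold lower (1.5 to 1.72). Its relatives Bcl2a1b and Bcl2a1d were 1.82-fold and 2.0-fold higher, although these are near-identical copies and Bcl2a1d reached 20 CPM in rule cells alone. Il18r1, a chain of the interleukin 18 receptor, was at 20.9 CPM in rule cells, against 43.2 CPM in the others, 2.07-fold lower (1.73 to 2.5). Itgae, the CD103 integrin chain, was at 38.9 CPM in rule cells, against 20.1 CPM in the others, 1.93-fold (1.68 to 2.22).

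Receptor-signalling genes showed small ratios of one sign. Of 16 measured, 15 were above 0 and none past 1.5-fold, with a median of 0.26. Cd8a was at 611 CPM in rule cells, against 472 CPM in the others, 1.30-fold, and Cd3g and Fyn had ratios of 1.31 and 1.33. In the receptor-response list 10 of 16 were measured and 1 passed 1.5-fold, Tnfrsf9 (4-1BB), at 20.2 CPM in rule cells, against 9.83 CPM in the others. Tnfrsf9 and Nr4a2 reached the minimum in rule cells alone. Cd5, which scales with receptor signal strength, had a ratio of 1.34, while the early-response gene Nr4a1 was at 15.3 CPM in rule cells and 16.7 CPM in the others. Of the anergy-linked list 8 of 15 were measured and 2 were at least 1.5-fold higher, Cd200 and Tnfrsf9. These genes and Nr4a2 reached 20 CPM in rule cells alone. The ubiquitin ligase gene Cblb had a ratio of 1.29. Of 12 costimulatory receptors 9 were measured and 2 were at least 1.5-fold higher, Icos and Tnfrsf9, none lower.

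The remaining lists with at least 3 measured genes had medians between -0.12 and 0.17 and are shown in the plot of gene lists, with 1 gene or none past 1.5-fold in each direction. Their called genes were Itgb1, Itgae, Ifi27l2a and Isg15. The NK lectin-like list had 2 measured genes, Klrk1 and Klrd1 with ratios of 1.02 and 1.23, and a median of 0.16. The CD4 and regulatory T list also had 2, Tnfrsf18 with a ratio of 1.26 and Capg, past 1.5-fold, with a ratio of 2.07, and a median of 0.69. The division list stood apart. Of the 20 division genes outside the rule, 19 were at least 1.5-fold lower, with a median of -1.35. Against cells within both limits that median was 0.25 over these 20 genes, so its sign turned. Among interferon-response genes outside the rule, Ifi27l2a stood apart at 1454 CPM in rule cells, against 898 CPM in the others, 1.62-fold (1.58 to 1.66), while Isg15 was at 37.6 CPM in rule cells and 81.0 CPM in the others. Against cells within both limits Isg15 had a ratio of 0.98.

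**Figure D2:**
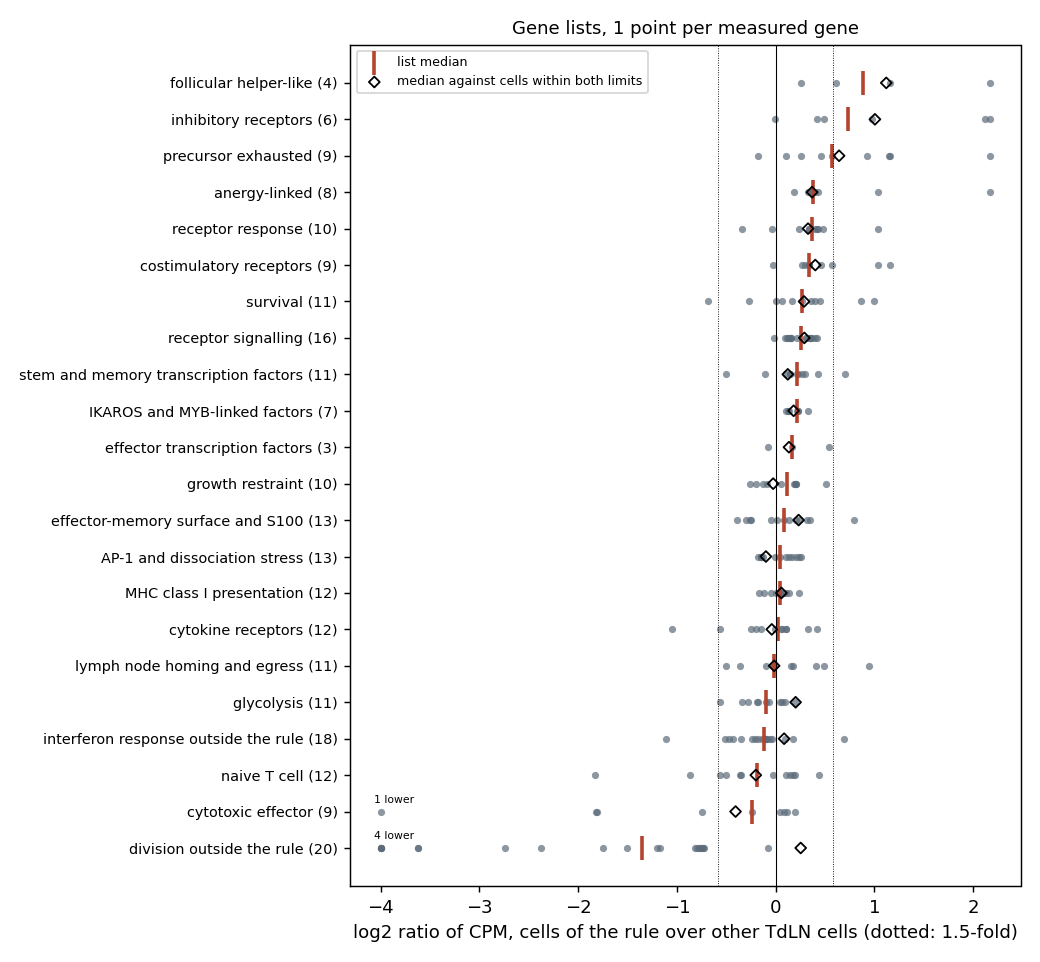
Log2 ratio of CPM, rule cells over other TdLN cells, for each measured gene of each list (number in brackets). Bars are list medians and diamonds the medians against other cells within both limits; the inhibitory receptor median is 0.74 and the division median is -1.35, or 0.25 against cells within both limits.

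The levels followed the number of rule genes detected, counted within both limits from 0 (3647 cells) through 1 (1158), 2 (360) and 3 (119) to 4 (32). Slamf6 was at 70.0, 120, 194, 274 and 325 CPM in that order, and Lag3 at 3.46, 10.0, 32.4, 57.7 and 84.4 CPM. Tox was at 30.7, 41.3, 60.4, 68.4 and 76.2 CPM. Cd200 was at 2.49, 6.53, 23.2, 40.1 and 32.9 CPM, and its last 2 intervals overlapped. Cells with 1 gene, just outside the rule, thus lay between those with none and those with 2 for these 4 genes.

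In the same order Ccl5 was at 1035, 517, 264, 165 and 121 CPM, Igfbp4 at 124.6, 92.6, 32.4, 17.6 and 18.5 CPM, and Il7r at 328, 289, 203, 171 and 105 CPM. Median depth was 9407, 9377, 9951, 11512 and 13498 UMIs. The first 3 classes differed little in depth, and the cells with 3 or 4 genes were deeper; depth was not separated from the number of genes in these values. The class with all 4 genes held 581 CPM of Lyz2, against 12.5 CPM in cells with 2. That class had 282 Lyz2 UMIs, and 282 was also the most in any rule cell, so all of them lay in the same cell.

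**Figure D3:**
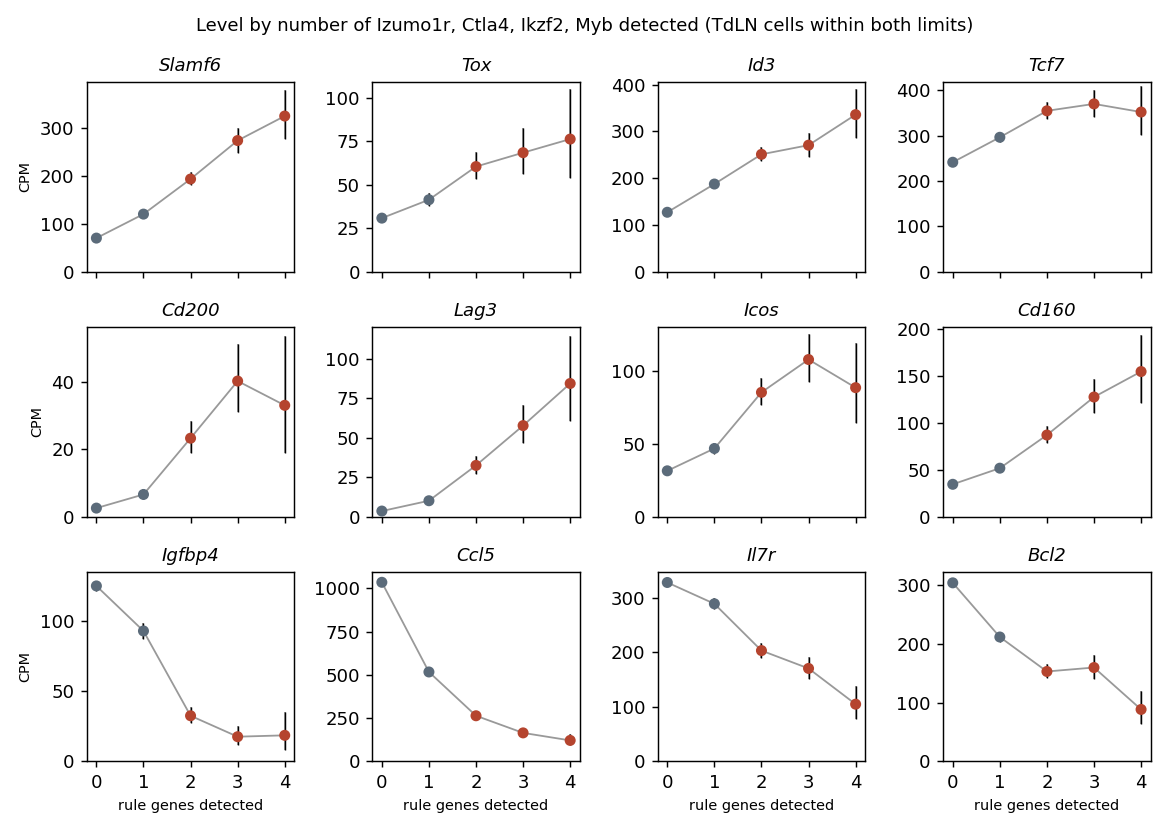
CPM of 12 genes by the number of rule genes detected, TdLN cells within both limits, with 95% Poisson intervals; red points are rule cells and grey points are cells just outside the rule. Slamf6 is at 70.0 CPM with 0 genes and 325 CPM with 4, and Ccl5 at 1035 CPM and 121 CPM.

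The pattern was also read within each exact pair of genes. For Slamf6, Tox, Lag3, Cd200, Icos and Id3, the values of 6 of 6 pairs were above that of the cells with 1 rule gene. For Ccl5, Igfbp4, Il7r, Bcl2 and Klf2 all 6 were below. For Tcf7 5 pairs were above and 1 below, Izumo1r with Ctla4 at 284 CPM, against 296 CPM in cells with 1 gene. The pairs are parts of the same rule cells, in which these genes were already higher or lower. The counts of pairs are therefore descriptions and not support. Not every pair was beyond counting error: Tox was at 41.6 CPM (30.1 to 56.0) in Ctla4 with Myb cells, against 41.3 CPM in cells with 1 gene, and Lag3 at 12.3 CPM (5.31 to 24.2) in Ikzf2 with Myb cells, against 10.0 CPM. Slamf6 ran from 144 CPM in Izumo1r with Ikzf2 cells to 254 CPM in Izumo1r with Myb cells. Lag3 ran from 12.3 CPM in Ikzf2 with Myb cells to 59.7 CPM in Izumo1r with Ctla4 cells. Ccl5 was highest in Ikzf2 with Myb cells (499 CPM) and lowest in Izumo1r with Ctla4 cells (80.5 CPM). Capg was at 26.1 CPM in Ikzf2 with Myb cells and 117 CPM in Izumo1r with Ikzf2 cells. The pairs with Izumo1r therefore had the lowest Ccl5 values, from 80.5 to 178 CPM, against 268 to 499 CPM in the 3 pairs without it. The 6 groups held 28 to 89 cells each.

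Choosing and measuring on the same molecules was avoided by putting each UMI at random in 1 of 2 portions. The 299 cells chosen in the first portion had, in the second, 7.31-fold (6.12 to 8.69) more Izumo1r, 6.70-fold more Ikzf2, 4.21-fold more Ctla4 and 3.84-fold more Myb than the other cells. Slamf6 was 2.65-fold higher (2.41 to 2.91), Tox 2.04-fold, Cd200 5.84-fold and Lag3 5.64-fold. All of these genes were chosen with earlier results of these data known, so the ratios are descriptions and not support.

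The same rule in blood gave cells that shared most of the leading genes. The 118 PBMC rule cells had a median of 10981 UMIs, against 6949 in the other PBMC cells. At 1.5-fold, 194 of 4346 genes (4.46%) were higher and 311 (7.16%) lower in them. Of the 16 leading TdLN genes, 14 were above 1 and 11 at least 1.5-fold higher in PBMC rule cells. The share of all PBMC genes with a ratio above 1 is not given here, and the rule cells were deeper. The count of 14 is therefore a description and not support. Slamf6 was at 232 CPM in PBMC rule cells, against 70.8 CPM in the other PBMC cells, 3.28-fold (2.91 to 3.68). Lag3 was at 38.4 CPM in PBMC rule cells, against 7.70 CPM in the others, and Id3 at 52.5 CPM against 14.4 CPM. Cd160 went the other way, at 28.8 CPM in PBMC rule cells and 35.7 CPM in the others, with a ratio interval of 0.572 to 1.11 that included 1. Bcl2a1b had a ratio of 0.946.

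Ccl5 and Gzma were lower in rule cells of both compartments. Ccl5 was at 2510 CPM in PBMC rule cells, against 15884 CPM in the other PBMC cells, both far above the TdLN values of 227 and 794 CPM. Gzma was at 51.7 CPM in PBMC rule cells, against 1329 CPM in the other PBMC cells. Tcf7 was at 383 CPM in PBMC rule cells and 191 CPM in the others, 2.01-fold. The PBMC comparison was repeated in cells with a Trbv13-3 UMI and no other beta V segment, 46 rule cells against 911 others. There 14 of 15 measured leading genes were at least 1.5-fold higher, among 556 of 4283 genes (13%) higher and 305 (7.12%) lower. The other one was Cd160, with a ratio of 0.721. Tox, at a ratio of 1.68 in all PBMC cells, was under 20 CPM in the Trbv13-3 cells, and its ratio of 0.778 had an interval of 0.309 to 1.64.

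**Figure D4:**
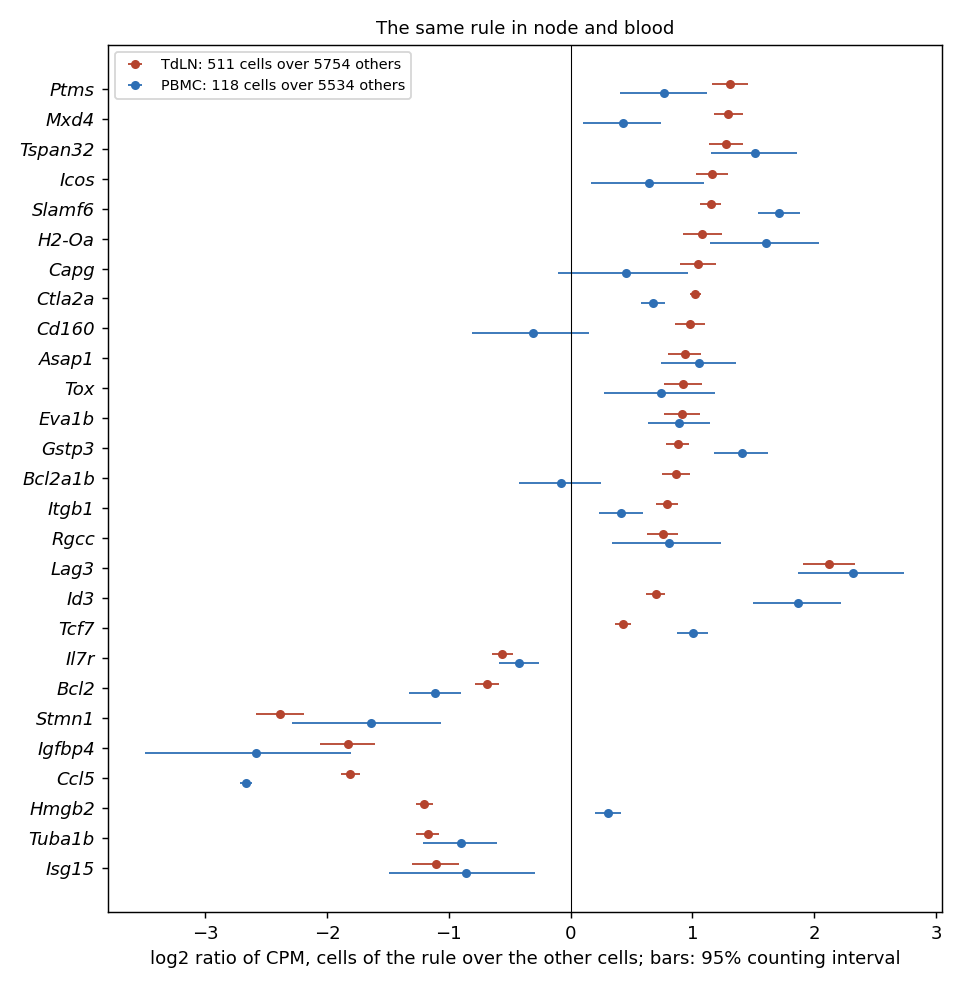
Log2 ratio of CPM, rule cells over other cells, in TdLN (red, 511 over 5754 cells) and PBMC (blue, 118 over 5534 cells), with 95% counting intervals. Slamf6 and Lag3 are above 0 in both, Ccl5 and Igfbp4 below 0 in both, and Cd160 is above 0 in TdLN alone.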

How the data were processed

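Single-cell 3′ libraries of TdLN, PBMC and memory P14 cells were read as deposited by the authors, as whole-number UMI counts per gene and barcode that had not been normalized. They were made with Cell Ranger 3.1.0 on mm10, per the submitters' processing notes, and barcodes had been called as cells before deposit. All 31053 genes were read; no per-sample column was left unmapped. Kept barcodes had 500 or more genes and no more than 10% of counts from mitochondrial genes. Doublets were not removed. An alternative left out the cells with the most UMIs.

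The members and the 24 gene lists were chosen with earlier results of these data known. Counts were summed over cells (Python 3.11.15, numpy 2.4.6, pandas 2.3.3), with exact intervals from scipy 1.17.1. TMM scaling used edgeR 4.0.16 in R 4.3.3. A gene was called at 1.5-fold with 20 CPM in the higher group. The names came from a rule: the 16 highest and 10 lowest ratios at 50 CPM or more, without ribosomal protein, mitochondrial, predicted and receptor segment genes, the given markers, and up to 4 genes per list. Genes of the lists given beside these (for example Pdcd1 or Bcl6) were taken from the lists after their values had been seen. The calling step was tested on simulated counts. Cells are not replicates, so no p-value was computed.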

Additional observations from a re-analysis of the deposited data

How the results depend on the processing

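No paired analysis was possible because each group had 1 library and replicate number 1 alone. The share of rule cells, 8.16% as reported, was 9.61% with the other cells held within both limits, 7.38% without cells carrying other cell type markers, 10.2% in Trbv13-3 cells, 5.67% at 1000 genes and 5% mitochondrial counts, 3.78% when thinned, 4.77% with separate UMIs to choose and measure, 2.41% at 3 or more genes, and 5.57%, 4.90%, 5.97% and 4.69% without Izumo1r, Ctla4, Ikzf2 and Myb. The counts of genes higher and lower, 85 and 97, were 155 and 50 within both limits, 137 and 147 in Trbv13-3 cells, 217 and 185 with the stricter cell filter, 380 and 149 thinned, 208 and 157 with separate UMIs, and 204 and 147 at 3 or more genes. They were 257 and 363 at 5 CPM, 34 and 28 at 50 CPM, 16 and 47 at 2-fold and 487 and 292 at a looser fold limit. The count higher was 131 without Myb and 54 with TMM. The count lower was 55 without other cell type markers, 51 without the cells with the most UMIs, 147 with matched depth and 242 without ribosomal protein and mitochondrial genes in the totals. Why the counts differed was not tested. The 16 leading genes stayed above 0 under all 18 alternatives that give single genes, and 15 of them stayed at 1.5-fold or more when thinned. They were picked by their ratios in these same counts, so this is a description and not support.

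Within both limits the signs turned for the division list (median 0.19 over the genes that reach 20 CPM there), Stmn1 (1.08), Cks1b (0.38), Hmgb2 (0.58) and Cenpf (0.77, log2). Cd74 turned without other cell type markers (1.32), and Lyz2 at 3 or more genes (0.088). Most Lyz2 UMIs of the cells with 3 or more genes lay in the cell that held 282. Of 2 alternatives chosen after seeing the data, leaving out cells with at least 3 B or 3 myeloid markers turned Cd74 (1.31). With the limits added, the share was 9.60%, the counts 159 and 38, the division list 0.073, Stmn1 1.14, Cks1b 0.32, Cd74 1.72, Hmgb2 0.59 and Cenpf 0.90. The depth limits the rule itself: 29.2% of the rule cells rest on single UMIs of each rule gene, and genes under 20 CPM, Pdcd1 among them, could not be compared firmly.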

Other observations

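Against the other cells within both limits, further genes outside the naming rule differed, and they were chosen after their values had been seen. Cd86, a ligand of CD28 and CTLA-4 better known on antigen-presenting cells, was at 25.3 CPM in rule cells, against 12.1 CPM in those cells. The chromatin enzymes Ezh2 and Nsd2, which methylate histone H3, were 2.12-fold and 2.48-fold higher, and the condensin subunit gene Smc4 was at 321 CPM in rule cells, against 165 CPM. Fcgrt, the neonatal Fc receptor, was at 12.0 CPM in rule cells, against 26.9 CPM, 2.24-fold lower (1.77 to 2.88).

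A few more genes were read in the same comparison. Rrp9 was at 19.2 CPM in rule cells, against 32.9 CPM in the other cells within both limits and the spermidine synthase gene Srm at 33.8 CPM against 51.7 CPM. Socs3, an inhibitor of cytokine signalling, was at 39.4 CPM in rule cells, against 65.0 CPM. All of these values come from the one TdLN library.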
